A study of Mus musculus with 10 samples.

Results

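The cytosolic ribosomal protein genes are the genes whose proteins build the large (Rpl, Rplp) and small (Rps, Rpsa) subunits of the ribosome outside mitochondria. They were chosen by symbol, as every gene in the deposited table named Rpl, Rplp or Rps with a number (and an optional suffix letter or digit) or Rpsa. Genes with a -ps symbol and the Rps6k kinases were left out. Of 52636 genes in the table, 88 met this rule, 52 of the large and 36 of the small subunit. GENCODE M21 annotates 83 of them as protein coding, and Rpl6l, Rps4l, Rps3a2, Rps3a3 and Rps12l1 as processed pseudogenes. The low-count filter passed 85 members, 50 of the large and 35 of the small subunit. The other 3 were Rpl39l, with 3 counts in all 10 libraries together, and Rpl10l and Rps12l1, with 0. A count of 0 over all libraries allows up to 0.0129 CPM (counts scaled to a common library size), by counting error alone.

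The study sequenced S1BF, the cortical area that maps the whiskers, in C57BL/6 mice of postnatal day 17, by RNA sequencing of whole tissue. Loxp mice (n = 4) carried the floxed Rxra allele Rxratm1Krc/J and no Cre. Hetero mice (n = 2) carried Nex-cre and the heterozygous conditional deletion named Rxra cKO-Het, and cKO mice (n = 4) carried Nex-cre and the full conditional deletion named Rxra cKO. All 3 groups therefore shared a floxed Rxra allele, and both deleted groups differed from Loxp by Nex-cre as well. Nex-cre expresses Cre from the Neurod6 locus, which is active in cortical excitatory neurons, so interneurons, glia and vessel cells of the tissue lie outside its reach. Nothing in the labels ties each library to a separate animal, and p-values therefore cover only the spread between these samples. In whole tissue, fewer cells of a type and less RNA per cell cannot be told apart.

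Each ribosome holds a single copy of nearly every ribosomal protein, and cells make these proteins in matched amounts. Most of their messenger RNAs begin with a run of pyrimidines called the TOP (terminal oligopyrimidine) motif, through which mTORC1 and the protein Larp1 set their translation. In neurons, ribosomal protein messenger RNAs are abundant in the cell body and are also found in axons and dendrites. Because genes for these proteins are highly expressed and were often copied back into the genome, mouse chromosomes carry many processed copies of them.

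Total counts ranged from 19332990 to 26086337 per library, and no library repeated another, since any pair of the 45 differed by a chi-square of 4.76 to 39.0 per gene (near 1 for a repeat). Whole-gene Rxra was 21.6 to 31.8 CPM in Loxp, with Hetero at 23.2 and 26.4 and cKO at 29.0 to 32.3, which does not check a deletion, since reads of the undeleted part and of cells without Cre are included. Neurod6, which Nex-cre interrupts, was 66.7, 55.7, 61.9 and 34.9 CPM in Loxp, with Hetero at 34.4 and 34.0 and cKO at 22.9 to 38.1, so the library labelled Loxp 4 lay among the Cre libraries. The summed level of 5 excitatory neuron markers was 5254 to 6442 CPM, with Loxp 1 lowest. Choroid plexus markers summed to 728 CPM in Hetero 2 and to 2.71 to 22.1 CPM elsewhere.

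The start sites of the members show the TOP motif unevenly. RefSeq promoters (GRCm38.p6) were matched by symbol for 63 of 88 members, with 75 start sites. A tract was counted as a C followed by at least 4 bases that are each C or T, on the gene's strand, beginning within 10 bases of the annotated start. Of the 75 member promoters, 41 held such a tract (54.7%, exact 95% interval 42.7% to 66.2%), against 10052 of 32776 other promoters (30.7%). The interval treats start sites as independent, although some belong to the same gene. By gene, 39 of 63 members held a tract at any start (61.9%), against 9258 of 26962 other genes (34.3%). The windows below run from 30 bases before the start to 15 bases from it on, with the tract in capitals, and are shown as examples of members with and without the tract. The first 5 hold a tract and the last 2 do not.
Rps6, chr4:86857353-86857397, reverse strand: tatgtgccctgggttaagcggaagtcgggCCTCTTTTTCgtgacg
Rps18, chr17:33955651-33955695, reverse strand: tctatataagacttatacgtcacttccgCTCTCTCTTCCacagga
Rplp2, chr7:141447621-141447665, forward strand: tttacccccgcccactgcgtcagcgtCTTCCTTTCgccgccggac
Rpl28, chr7:4792935-4792979, forward strand: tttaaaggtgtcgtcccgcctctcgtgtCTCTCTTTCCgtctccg
Rps24, chr14:24490648-24490692, forward strand: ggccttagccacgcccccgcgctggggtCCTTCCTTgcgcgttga
Rps15, chr10:80292401-80292445, forward strand: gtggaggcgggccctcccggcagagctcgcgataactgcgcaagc
Rplp0, chr5:115559437-115559481, forward strand: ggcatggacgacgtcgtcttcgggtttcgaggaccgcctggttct
A match describes these letters at an annotated start and is no measurement of where transcription began in these samples.

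The members were among the most abundant transcripts of the tissue. Levels between genes are given as the deposited FPKM (fragments scaled by gene length and library size). The length behind it is not given in the sources used here, and for some members it was not the transcript length used below. Rpl41 had 281 CPM, 437 bases and 239 FPKM in Loxp, and Rplp1 had 290 CPM, 499 bases and 578 FPKM. The order of levels between genes is therefore that of the deposited FPKM alone. In Loxp, 78 of 88 members lay above the 90th percentile of all genes in the table, and 78 had at least 10 FPKM. The median member of the large subunit had 47.9 FPKM and that of the small subunit 49.4 FPKM. Together they took 2.08% to 2.65% of all FPKM, and 0.858% to 1.12% of all counts. The difference between these shares goes with their length, a median of 751 bases (271 to 3706) against 2842 bases for 14908 other tested protein-coding genes. They are spread over 19 chromosomes, with 15 on chromosome 7 and 4 on X.

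Within the large subunit, the acidic stalk protein gene Rplp1 was highest, at 578 ± 69.3 FPKM in Loxp (SD, n = 4). Rpl41, which encodes the smallest ribosomal protein, followed at 239 ± 56.1, then Rpl36 at 232 ± 51.1 and Rpl8, a protein near the peptidyl transferase centre, at 219 ± 31.3. The other stalk genes had lower deposited FPKM, Rplp0 at 119 ± 17.2 and Rplp2 at 47.8 ± 7.57. The 3 proteins form 1 structure that recruits elongation factors. Mean Loxp CPM was 199 for Rplp0, with a transcript of 1358 bases, and 99.8 for Rplp2, with 421 bases. Their order per length therefore depends on the length used. The lowest tested members of the large subunit were Rpl3l at 0.371 ± 0.0844, Rpl24 at 1.89 ± 0.660, Rpl6l at 6.98 ± 1.75 and Rpl21 at 7.48 ± 3.24 FPKM. Rpl24 and Rpl21 each have near-identical copies elsewhere in the genome, described further on, and their values are therefore uncertain. Counted with these copies, Rpl24 was still only 3.22 to 6.41 CPM over the libraries, whereas Rpl21 was 88.2 to 115 CPM.

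Within the small subunit, Rps15, a protein close to the decoding site, was highest at 293 ± 40.2 FPKM in Loxp (SD, n = 4). Rps2 had 208 ± 30.7, Rps14 had 191 ± 21.4 and Rps3a1 had 185 ± 23.9 FPKM. The lowest tested were Rps3a3 at 0.930 ± 0.208 and Rps3a2 at 1.23 ± 0.543, both annotated as pseudogenes of Rps3a1, then Rps4l at 9.08 ± 3.42 and Rps27l at 10.3 ± 1.24 FPKM. Some neighbours changed places in other groups. Rpl36 stood above Rpl41 in Hetero (240.3 against 230.03 FPKM) and in cKO (241 against 233), and Rps3a1 above Rps14 in Hetero (168 against 164), within the spread between libraries in Loxp. Rplp1 averaged 562 ± 15.6 FPKM in Hetero (n = 2) and 600 ± 91.2 in cKO (n = 4), and Rps15 averaged 279 ± 0.495 and 292 ± 38.3.

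**Figure D1:**
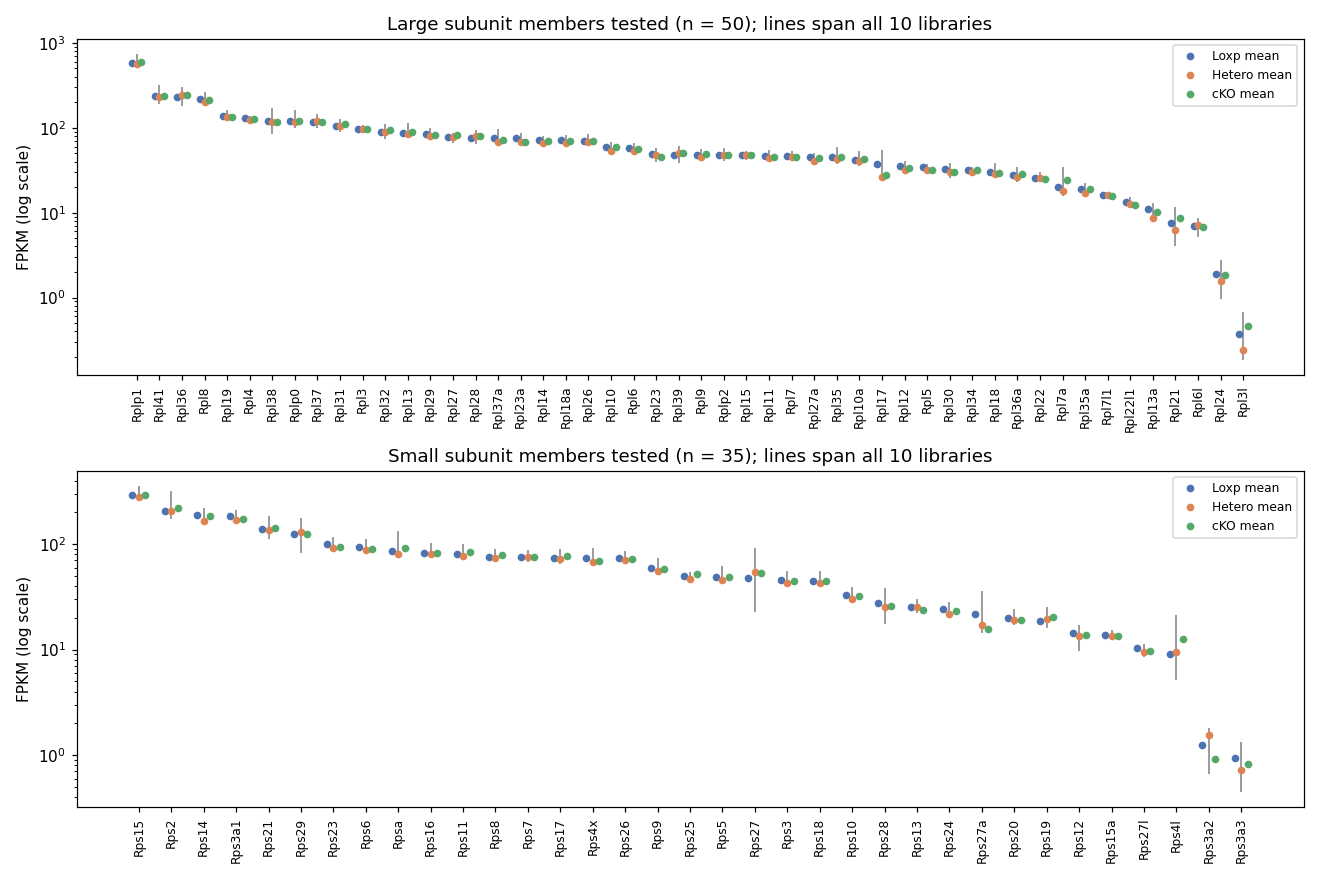
Mean deposited FPKM (log axis) of each tested member in Loxp (n = 4), Hetero (n = 2) and cKO (n = 4), ordered by the Loxp mean, large subunit above and small subunit below; grey lines span the lowest to the highest of the 10 libraries. The dots of the 3 groups lie within the span of the libraries, and the levels run from 578 FPKM for Rplp1 to 0.371 FPKM for Rpl3l in Loxp.

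Several proteins have a second gene, and in each pair named here the main gene was higher in deposited FPKM. Rpl3 had 96.3 FPKM in Loxp against 0.371 for Rpl3l, the paralog known from striated muscle. Rpl7 had 46.8 FPKM against 16.2 for Rpl7l1, and Rpl22 had 25.9 against 13.4 for Rpl22l1, the nearest pair. Rps4x had 73.3 FPKM against 9.08 for Rps4l, which GENCODE M21 annotates as a processed pseudogene. Rps27 had 47.8 FPKM against 10.3 for Rps27l. Rpl10, at 58.8 FPKM, and Rpl39, at 48.2 FPKM, have paralogs known from the testis, of which Rpl10l was listed at 0 and Rpl39l had 1 count in each of 3 libraries.

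Member levels varied together from library to library, and 2 libraries of different groups stood high. Within a gene, levels are CPM with TMM-scaled library totals. Members of the large subunit summed to 6554, 5535, 5297 and 5049.9 CPM in Loxp 1 to 4, to 5260.1 and 5445 in Hetero 1 and 2, and to 5269.6, 6427, 5322 and 5183 in cKO 1 to 4. For the small subunit the sums were 4698, 3913, 3713 and 3565 CPM in Loxp, with Hetero at 3731 and 3818 and cKO at 3756, 4786, 3690.0 and 3593. Loxp 1 and cKO 2 were thus the highest in both subunits, and the other 8 libraries lay between 5049.9 and 5535 CPM for the large and between 3565 and 3913 CPM for the small subunit. Group means were 5609 ± 660.4 CPM in Loxp, 5352 ± 131 in Hetero and 5550.3 ± 587 in cKO for the large subunit. For the small subunit they were 3972 ± 504 in Loxp, 3775 ± 61.7 in Hetero and 3956 ± 557 in cKO (SD, n = 4, 2 and 4). The differences between group means were smaller than the SD within Loxp and within cKO.

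**Figure D2:**
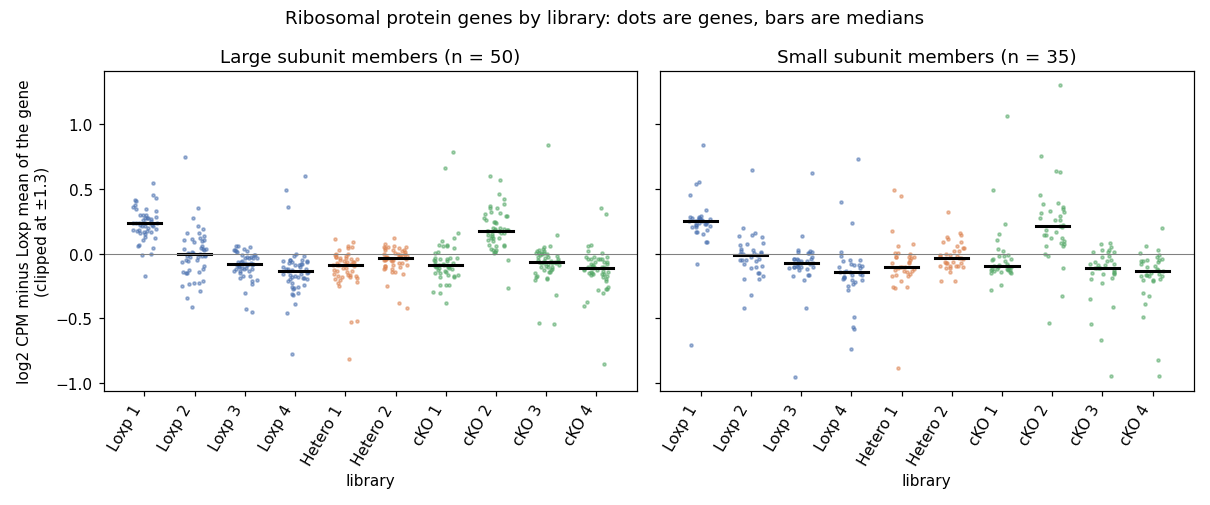
Each dot is a tested member, as its log2 CPM minus its mean over the 4 Loxp libraries (clipped at ±1.3), for 50 large and 35 small subunit members in each of 10 libraries; bars are medians. The medians of Loxp 1 (0.23 and 0.25) and cKO 2 (0.18 and 0.21) stand above those of the other 8 libraries, which run from −0.14 to −0.01.

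In Loxp 1, 80 of 85 members exceeded their Loxp mean, and in cKO 2, 78 of 85 did. The other libraries had 7 to 38 such members, with Loxp 4 lowest. Loxp 1 was the highest of all 10 libraries for 44 members and cKO 2 for 29, whereas they were the highest for 16.4% and 19.97% of all tested genes. The same 2 libraries were the 2 highest for 58 of 85 members (68.2%), 34 of 50 large and 24 of 35 small. They were so for 6.34% of all tested genes, and for 12.8% of 2833 protein-coding genes of the members' length (391 to 1587 bases). Mitochondrial ribosomal protein genes had 15 of 81 in that order (18.5%), initiation factors 8 of 30 (26.7%), elongation and termination factors 3 of 10 (30%) and ribosome biogenesis factors 4 of 32 (12.5%). The pair of libraries was picked after their member levels were seen, so these counts are a description and carry no test.

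Genes of the members' length were also above their Loxp mean in Loxp 1, and stood near it in cKO 2. Relative to the Loxp mean, the median of the length-matched genes was 0.15 on the log2 scale in Loxp 1 and 0.01 in cKO 2, and that of mitochondrial ribosomal protein genes was 0.17 and −0.04. Rps2, a small subunit protein at the messenger RNA entry channel, was 453, 401, 359 and 319 CPM in Loxp, with Hetero at 373 and 385 and cKO at 350.0, 587, 352 and 330. Rplp0 was 229, 217, 186 and 165 CPM in Loxp, with Hetero at 193 and 201 and cKO at 180.0, 272, 172 and 176. Both genes were highest in cKO 2. Rps14 was 306 CPM in Loxp 1, above the 229 to 266 CPM of the other 8 libraries, and 263 CPM in cKO 2, within that range. In cKO 2 the ratio of large to small subunit CPM was 1.34, the lowest, against 1.40 to 1.44 elsewhere.

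Other features set cKO 2 or Loxp 1 apart, but none of those listed here set both apart. In cKO 2, summed astrocyte markers were 1141 CPM (795 to 949 elsewhere), microglial markers 218 (165 to 186), endothelial markers 208 (113 to 194), oligodendrocyte markers 4920 (5365 to 8798), interneuron markers 614 (628 to 957) and meningeal markers 29.8 (40.0 to 63.3). Loxp 1 had the most red cell marker signal, 207 CPM against 2.91 to 157. Mitochondrially encoded genes took 3.58% of counts in cKO 2 and 3.68% in Loxp 2, against 2.80% to 3.20% in the rest. Their part in the members' levels was not tested.

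Across the 10 libraries, the log2 CPM of a member had a median correlation of 0.84 with the mean of the other members, and 62 of 85 exceeded 0.70, the 95th percentile of 18370 other tested genes, whose median was 0.01. Each of these is a description over 10 points that share depth and composition. The 6 members under 0.3 were Rpl3l, Rpl7l1, Rpl13a, Rpl17, Rpl21 and Rps3a2. Of all non-members, Tepsin (r = 0.97), Erp29 (0.95) and Sptssa (0.95) followed the member mean most closely over the 10 libraries. Erp29, a chaperone of the endoplasmic reticulum, was 64.1 CPM in Loxp 1 and 64.4 in cKO 2, and 51.3 to 56.7 elsewhere.

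Many members had near-identical copies, which bears on the spread of single members. A copy was a gene of the table whose annotated transcript matched a member's at 98% identity or more over at least 50% of its length. By this rule 59 of 88 members had at least 1 copy, 37 large and 22 small, with a median of 3 and at most 16 (Rpl21). The 215 copy genes comprised 195 pseudogenes and 16 protein-coding genes. How reads that fit several genes were counted is not given in the sources used here, so values of these members are uncertain. For 8 members the copies together held more counts than the member itself. They were Rpl17, Rpl21, Rpl24 and Rps27, and the annotated pseudogenes Rpl6l, Rps3a2, Rps3a3 and Rps12l1. The copies of these pseudogenes include the protein-coding genes Rpl6, Rps3a1 and Rps12.

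Rps27, a small subunit protein gene, and its copy Rps27rt were opposite in level across libraries. Their coding sequences differed at 0 of 255 bases, whereas the paralog Rps27l differed from Rps27 at 61 of 255. The first 75 coding bases are shown because a read from this stretch fits both genes of the first pair alike, with capitals at the 22 bases where Rps27l differs from Rps27 (GENCODE M21 transcripts, GRCm38).
Rps27, chr3:90212522-90213651, reverse strand: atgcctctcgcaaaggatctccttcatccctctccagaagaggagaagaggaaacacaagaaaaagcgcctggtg
Rps27rt, chr9:114982366-114982739, reverse strand: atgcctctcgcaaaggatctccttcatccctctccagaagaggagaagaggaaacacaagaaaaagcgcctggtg
Rps27l, chr9:66946086-66949516, forward strand: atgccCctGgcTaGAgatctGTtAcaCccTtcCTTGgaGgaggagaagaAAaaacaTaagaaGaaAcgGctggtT
Rps27 alone was 55.7, 44.5, 23.8 and 76.7 CPM in Loxp, with Hetero at 64.8 and 49.1 and cKO at 96.7, 77.9, 23.9 and 23.9. Rps27rt was 78.8, 64.2, 84.3 and 25.3 CPM in Loxp, with Hetero at 45.0 and 57.1 and cKO at 17.2, 44.7, 86.0 and 81.9. Where Rps27 was lowest (Loxp 3, cKO 3 and cKO 4), Rps27rt was highest, and where Rps27 was highest (cKO 1), Rps27rt was lowest. The sum of the 2 genes was 135, 109, 108 and 102 CPM in Loxp, with Hetero at 109.7 and 106 and cKO at 114, 123, 109.95 and 106. The coefficient of variation over the 10 libraries was 47.5% for Rps27 alone and 8.59% for the sum. The correlation of Rps27 with the other members was 0.31 alone and 0.92 as the sum.

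Rpl17 and Rpl21 showed less of this opposite pattern. For Rpl17 it was seen in Loxp 4. Rpl21 was 13.9 CPM in Loxp 4 and 40.1 in Loxp 2, where its most counted copy, BC004004, was 36.0 and 36.5. Copies held 81.0% of the joint counts of Rpl17, a protein at the exit tunnel of the large subunit, and 74.5% of those of Rpl21. Rpl17 alone was 28.1, 25.4, 20.5 and 42.6 CPM in Loxp, with Hetero at 19.6 and 21.6 and cKO at 22.7, 23.4, 19.2 and 21.2, so that Loxp 4 stood apart. Its copy Rpl17-ps10 was lowest in Loxp 4, at 37.4 CPM against 61.7 to 81.4 elsewhere. Counted with its 8 copies, Rpl17 was 118 to 155 CPM, its coefficient of variation went from 28.4% to 8.16%, and its correlation with the other members from 0.08 to 0.92. For Rpl21 with its 16 copies the coefficient of variation went from 30.4% to 6.98% and the correlation from 0.22 to 0.60. Because copies held most of the joint counts of both genes, each sum mostly follows its copies. These changes therefore do not show that counts moved between a member and its copies. Copies also held 58.7% of the joint counts for Rpl24, 41.0% for Rps12, 28.7% for Rps28, 28.0% for Rps10, 25.7% for Rpl7a and 24.4% for Rpl23a.

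**Figure D3:**
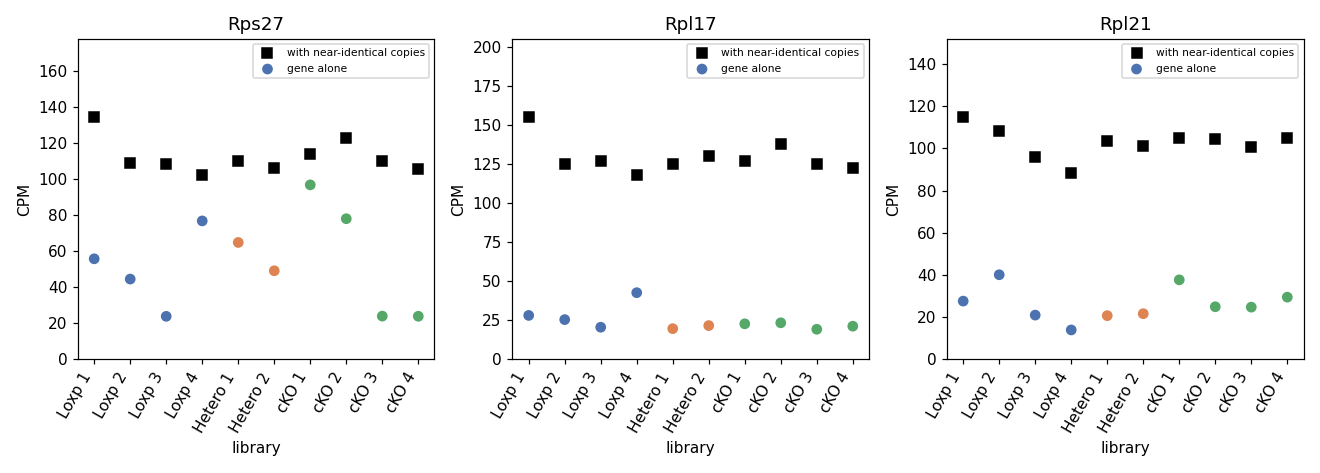
CPM of Rps27, Rpl17 and Rpl21 in the 10 libraries, alone (circles, coloured by group: Loxp blue, Hetero orange, cKO green) and summed with their near-identical copies (black squares). The circles of Rps27 range from 23.8 to 96.7 CPM and its squares from 102 to 135 CPM.

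Of the 10 members whose FPKM varied by more than 25% over the libraries, Rps4l and Rpl3l had no copy. Rps4l was 8.67, 12.8, 8.18 and 4.87 CPM in Loxp, with Hetero at 9.25 and 8.68 and cKO at 9.58, 20.4, 8.25 and 9.36, highest in cKO 2. Rps27a, whose product is a fusion of ubiquitin and a small subunit protein, was 72.1, 42.3, 30.2 and 28.7 CPM in Loxp, with Hetero at 33.5 and 34.8 and cKO at 34.1, 32.1, 30.4 and 28.8. Loxp 1 was far above all other libraries for Rps27a. With its 2 copies Rps27a was 81.3 CPM in Loxp 1 and 36.2 to 49.3 elsewhere, so the copies did not even out that library.

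The comparison of cKO with Loxp asked whether deleting Rxra in excitatory neurons goes with other transcript levels in S1BF. No member passed the threshold, edgeR's quasi-likelihood test with Benjamini-Hochberg adjusted p under 0.05 over all 18455 genes tested. The share of all genes called was 0% as well, by DESeq2 and limma-voom too. Without adjustment, 1 of 85 members had p under 0.05 (Rpl17), against 466 genes or 2.53% of all tested. Members of the large subunit had a median log2 fold change of −0.03, with 31 of 50 lower, and those of the small subunit −0.02, with 23 of 35 lower. Over all genes tested the median was 0.0003 and 49.9% were lower. For the length-matched genes it was −0.02. No member had all cKO libraries on 1 side of all Loxp libraries, which held for 0.818% of tested genes above and 0.721% below.

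The members with the smallest p in cKO against Loxp were those named here, and each had an edgeR adjusted p of 1. Rpl17 had a log2 fold change of −0.43 (SE 0.175), Rpl23a −0.15 (SE 0.0919), Rpl22l1 −0.13 (SE 0.0937) and Rpl5 −0.10 (SE 0.0840). Of the small subunit, Rps27a had −0.46 (SE 0.226), Rps4l 0.46 (SE 0.299) and Rps3a2 −0.44 (SE 0.337). Each of these 7 values moved by over 1.5 times when 1 library was left out. Rpl17 was −0.18 without Loxp 4, Rpl23a −0.07 without Loxp 2, Rpl22l1 −0.06 and Rpl5 −0.06 without Loxp 1, Rps27a −0.10 without Loxp 1, Rps4l 0.08 without cKO 2 and Rps3a2 −0.19 without Loxp 3. Counted with its copies, Rpl17 was −0.04. For Rpl17 an exact two-sided permutation test over the 8 libraries gave p = 0.143, where 0.0286 was the smallest possible. Rpl13a was −0.12 (SE 0.118) and Rps14 −0.06 (SE 0.0834), and Rps14 became 0.02 without Loxp 1.

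The direction of the members as a group depended on single libraries. Without Loxp 1 the medians were 0.07 for both subunits and 17 of 85 members were lower in cKO, and without cKO 2 they were −0.09 (large) and −0.11 (small), with 75 of 85 lower. Leaving out cKO 4 gave 0.01 and 0.02, with 34 lower, and leaving out cKO 3 gave −0.004 and 0.01, with 41 lower. With Loxp 1 and cKO 2 both left out, an alternative chosen after the data were seen, the medians were −0.01 and −0.02 and 52 of 85 were lower. Without Loxp 4, which Neurod6 sets apart, they were −0.07 and −0.06, with 65 lower. With TMM factors, DESeq2 size factors or library totals alone, 52 to 54 of 85 members were lower.

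**Figure D4:**
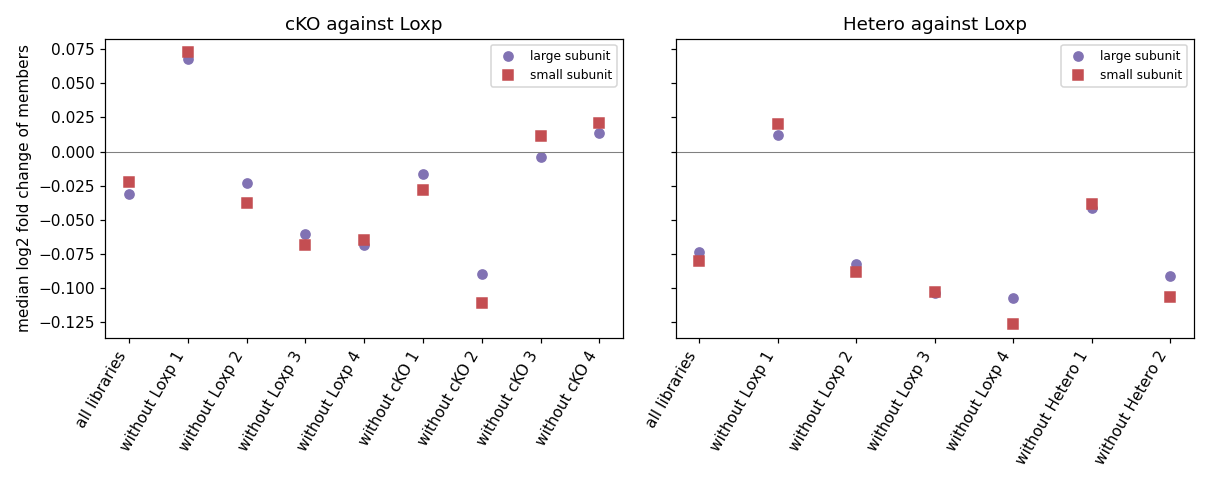
Median edgeR log2 fold change of large (circles, n = 50) and small (squares, n = 35) subunit members with all libraries and with 1 library left out at a time, for cKO against Loxp and for Hetero against Loxp. The medians run from −0.11 to 0.07 in cKO and from −0.13 to 0.02 in Hetero, and those without Loxp 1 lie above 0 in both.

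Hetero against Loxp compared the heterozygous deletion, again with Nex-cre, with no Cre. Most members were nominally lower, 41 of 50 large (median log2 fold change −0.07) and 29 of 35 small (median −0.08), against 51.8% of all genes (median −0.01) and 60.1% of length-matched genes (median −0.03). None passed the threshold, and 0% of all genes did (DESeq2 called 20 genes, none of them a member, and limma-voom 0). Without adjustment, 2 members had p under 0.05, Rpl13a and Rpl17, against 468 genes or 2.54% of all tested. In 4 of 85 members both Hetero libraries lay below all Loxp libraries, namely Rpl4, Rpl6, Rpl13a and Rps14. This 4.71% was near the 5.77% of all tested genes below, and no member lay above, where 5.64% of all genes did. Without Loxp 1, 35 of 85 members were lower and the medians were 0.01 and 0.02.

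Rpl13a, a large subunit protein also known for a role outside the ribosome in silencing inflammatory messenger RNAs, was 20.6, 28.0, 21.9 and 22.9 CPM in Loxp, with Hetero at 19.5 and 17.3 and cKO at 17.8, 23.8, 22.0 and 22.1. Both Hetero libraries were below every Loxp library, and cKO overlapped both groups. Its log2 fold change in Hetero was −0.35 (SE 0.147, edgeR adjusted p = 1), and an exact two-sided permutation test gave p = 0.133. That is the smallest two-sided p that these group sizes allow. Rps14, a protein of the platform of the small subunit, was 306, 235, 256 and 266 CPM in Loxp, with Hetero at 229 and 229 and cKO at 244, 263, 253 and 263. The Hetero libraries were the 2 lowest of the 10. Its log2 fold change in Hetero was −0.22 (SE 0.103, edgeR adjusted p = 1).

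Rpl6 was 207, 183, 176 and 174 CPM in Loxp and 168 and 169.8 in Hetero, a log2 fold change of −0.13 (SE 0.0980). Rpl4 was 281, 268, 250.2 and 247 CPM in Loxp and 246 and 246 in Hetero, −0.09 (SE 0.0894). In both genes the Hetero values lay just under the lowest Loxp library. Rpl17 had −0.50 (SE 0.220) and −0.25 without Loxp 4, and −0.04 with its copies. Rpl27a had −0.19 (SE 0.126), Rps24 −0.15 (SE 0.121) and Rps27a −0.34 (SE 0.281). Without Loxp 1, Rpl6 was −0.07, Rps24 −0.06 and Rps27a 0.02. All of these had an edgeR adjusted p of 1.

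cKO against Hetero compared the full with the heterozygous deletion, both with Nex-cre, and shares its libraries with the comparisons above. Members were nominally higher in cKO, 39 of 50 large (median log2 fold change 0.06) and 28 of 35 small (0.05), against 9698 of all 18455 genes (0.01) and 1470 of 2833 length-matched genes (0.01). None passed the threshold (0% of all genes did, DESeq2 called 3 genes and limma-voom 0, none of them members), and no member had an unadjusted p under 0.05, against 321 genes or 1.74%. Without cKO 2 the medians were −0.02 and −0.04 and 59 of 85 were lower. Rpl21 and Rps14 lay above both Hetero libraries in every cKO library (2 of 85, against 4.9% of all genes), and Rps3a2 lay below (1 of 85, against 4.54%).

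In cKO against Hetero the smallest p values belonged to the members named here, each with an edgeR adjusted p of 1. Rpl3l and Rps3a2 lay at low levels, and copies held 74.5% of the joint counts for Rpl21 and 25.7% for Rpl7a. Copies held 1.6% for Rpl13a and 0.8% for Rps25, and Rps14 had 0 copies. Rpl3l had a log2 fold change of 0.91 (SE 0.487) at 0.306 to 1.10 CPM, Rpl21 0.46 (SE 0.307), Rpl7a 0.41 (SE 0.297) and Rpl13a 0.22 (SE 0.147). Rps3a2 had −0.74 (SE 0.402) at 0.530 to 1.46 CPM, Rps14 0.16 (SE 0.103) and Rps25, a protein used in initiation at internal entry sites, 0.13 (SE 0.0899). Rpl7a was 62.3 CPM in cKO 3 and 51.8 in cKO 2 and 28.2 to 47.6 elsewhere, and was 0.18 without cKO 3. Rps25 was 0.06 without Hetero 1, and Rpl13a 0.14 without Hetero 2.

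**Figure D5:**
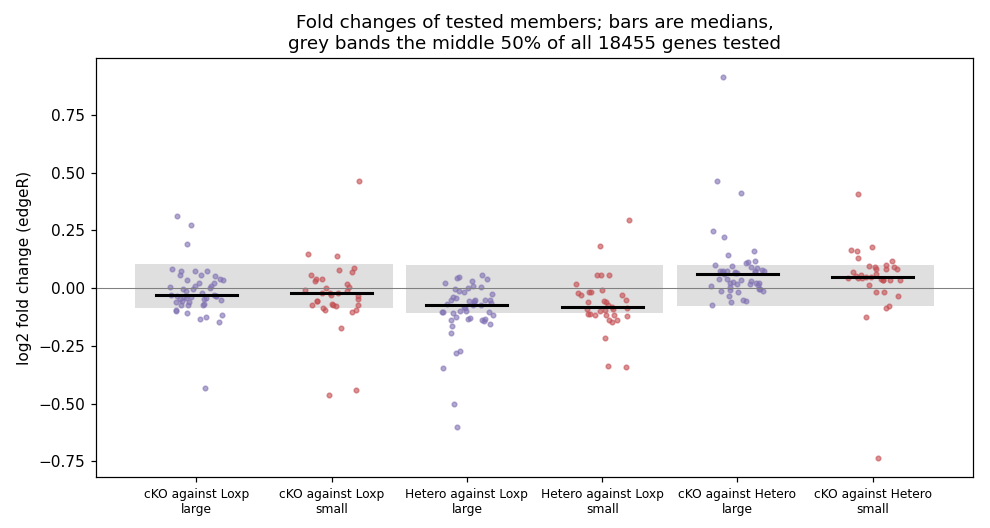
edgeR log2 fold changes of the tested members by subunit in the 3 comparisons, with black bars at the medians and grey bands from the lower to the upper quartile of all genes tested. The medians, −0.03 and −0.02, −0.07 and −0.08, and 0.06 and 0.05, all lie inside the grey bands.

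Other genes of the translation machinery showed no call in any comparison. In cKO against Loxp, 25 of 30 initiation factors were nominally lower (median log2 fold change −0.06), 8 of 10 elongation and termination factors (−0.07), 26 of 32 ribosome biogenesis factors (−0.08) and 60 of 81 mitochondrial ribosomal protein genes (−0.05). Of all genes tested 49.9% were lower, and of length-matched genes 57.3%. The cytosolic members had 54 of 85 lower and a median of −0.03, which changed sign when Loxp 1 was left out. The 4 lists also stood high in Loxp 1, with medians of 0.13, 0.12, 0.15 and 0.17 relative to the Loxp mean on the log2 scale. Their fold changes without Loxp 1 are not given here. Eif1, which guards the choice of the start codon, had −0.22 in cKO (SE 0.0837) and −0.22 in Hetero (SE 0.103), and Rheb, the activator of mTORC1, −0.20 (SE 0.0714) and −0.20 (SE 0.0882), each with an edgeR adjusted p of 1. In Hetero against Loxp the 4 lists had 21 of 30 (−0.06), 8 of 10 (−0.06), 22 of 32 (−0.04) and 62 of 81 (−0.04) lower, and the cytosolic members 70 of 85 (−0.07). There, 51.8% of all genes tested and 60.1% of length-matched genes were lower. Of 14 genes of mTORC1 and its partners 7 were nominally lower in cKO and 5 in Hetero, and of 6 snoRNA host genes 3 in each. Outside the symbol rule, the ribosomal protein genes Fau and Rpl36al were −0.08 (SE 0.101) and −0.57 (SE 0.564) in cKO, and Fau was −0.15 (SE 0.125) in Hetero. Rpl36al lay at 0.156 to 1.11 CPM, highest in Loxp 1. Of the 4 ribosome genes listed outside the rule, 1 was higher than Loxp in cKO (0.01) and 1 in Hetero (0.07).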

How the data were processed

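The members and lists were chosen with earlier results of these data known. Per the submitters' processing notes, the authors made the deposited read counts per gene with featureCounts 1.5.0-p3 on mm10. The aligner, annotation and treatment of multi-mapping reads were not given in the sources used here. The authors also deposited FPKM per gene and library, used for levels between genes. Per the labels, 3 µg of RNA went into each library.

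Counts of all 10 libraries were fitted together in edgeR 4.0.16 (R 4.3.3) with TMM factors, filterByExpr, a mean per group and a quasi-likelihood test, adjusted over 18455 genes. The common biological coefficient of variation was 14.9%. Log2 CPM used a prior count of 2. Scripts were tested on simulated data. Copies were sought with blastn on GENCODE M21 (GRCm38) transcripts, which hold all 88 members.

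Members named are those with the smallest p per comparison and subunit (4 large, 3 small), the 4 highest and 4 lowest by Loxp FPKM, stalk genes, paralogs, non-overlapping members, Rpl13a, Rpl17 and Rps14. From other lists up to 3 genes of smallest p qualified. Rps2, Rps27rt, Rpl17-ps10 and BC004004 were added after their values were seen.

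Alternatives were DESeq2 1.42.0, limma-voom (limma 3.58.1), DESeq2 size factors, totals alone, no filter on low counts, a minimum of 1 CPM in 4 libraries, a fit of just the groups compared, a replicate block, members merged with copies, members without copies, log2(FPKM + 0.1), and each library left out. The deposited test columns were not used here.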

Additional observations from a re-analysis of the deposited data

Results flagged for a closer look

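In the cKO group, 1 library (cKO 2) stood far from the other 3, by the size of its gap to them against the range of the group. It was high in the summed CPM of large subunit members (6427, others 5183 to 5322) and of small subunit members (4786, others 3593 to 3756). Single named members with the same gap were Rpl22 at 89.5 CPM (others 66.9 to 69.4), Rplp0 at 272 (172 to 180.0), Rplp1 at 370 (369.7, others 269 to 286), Rps24 at 169 (168.5, others 135 to 139.9) and Rps4l at 20.4 (8.25 to 9.58). Over all 85 tested members, 27 had such a gap with cKO 2 high, 1 with cKO 4 low and, within Loxp, 4 with Loxp 1 high. Chance flags about 1 in 20 groups, and the members share libraries, so these are not separate signs.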

How the results depend on the processing

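No member was called under any alternative. The count of genes called over all tested moved from 0 to 32 for cKO against Loxp, to 68 for Hetero against Loxp and to 39 for cKO against Hetero with no low-count filter, and DESeq2 called 20 in Hetero against Loxp and 3 in cKO against Hetero. Leaving out 1 library gave 0 to 1, 0 to 15 and 0 to 14 genes called, the highest without cKO 2, Hetero 1 and Hetero 1; the cause was not tested. Rps14 in cKO against Loxp reversed to 0.0174 without Loxp 1 (range over single libraries left out −0.11 to 0.0174) and to 0.0060 without Loxp 1 and cKO 2 together. Rps27a in Hetero against Loxp reversed to 0.0199 without Loxp 1 (range −0.49 to 0.0199) and to 0.0263 without both. The share of member promoters with a TOP tract was 41.3% within 5 bases of the start and 74.7% within 20 bases, against 18.3% and 49.3% of other promoters.

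With the replicate number as a block, the numbers of same-numbered Loxp and cKO libraries did not pair them by the check made (correlations of 0.10, 0.20, 0.04 and 0.32), although each correlated best with its own number, as a hint from the data. Under the block 1, 1 and 0 genes were called. The medians of large and small subunit members were then −0.02 and −0.02 in cKO against Loxp, −0.19 and −0.19 in Hetero against Loxp (80 of 85 lower) and 0.15 and 0.15 in cKO against Hetero (3 of 85 lower). Without adjustment, 3, 11 and 4 of 85 members had p under 0.05 under the block, against 645, 591 and 532 of all 18455 genes. Hetero has only replicate numbers 1 and 2, so under the block it is compared mainly with libraries of those numbers. These include Loxp 1 and cKO 2, the highest in member level, and their part in the block results was not tested.

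Hetero has 2 libraries, so 1 library left out leaves a lone sample that is assumed to vary like the other groups. Near-identical copies limit 20 tested members, whose copies hold over 10% of the joint counts.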

Other observations

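Among the 60 tested genes with a -ps symbol, which are annotated relatives of the members, 34 were nominally higher in cKO and 38 in Hetero than in Loxp. Their median log2 fold changes were 0.08 and 0.15, against −0.03 and −0.07 over the 85 members, and none passed edgeR's threshold. Of all 18455 genes tested, 9246 and 8890 were higher, with medians of 0.0003 and −0.01. The -ps genes with the smallest p in each comparison with Loxp lay at 0 to 1.28 CPM, near the floor. Of the 116 tested near-identical copies that are no members, 61 and 68 were nominally higher. Reads that fit a member and its copy equally cannot be told apart.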
